A study of Mus musculus with 12 samples.

Results

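The genes studied here encode the proteins that coat and build the lipid droplets of brown adipose tissue. They are the 5 perilipins (Plin1, Plin2, Plin3, Plin4 and Plin5), the CIDE proteins Cidea and Cidec, and the fat storage-inducing transmembrane proteins Fitm1 and Fitm2. They were taken by gene symbol from a table of 61210 genes, in which each of the 9 symbols occurred once. All 9 were among the 16737 genes that passed the filter on low counts.

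Expression was measured by total RNA-seq in iBAT, the interscapular brown adipose tissue according to the methods of the study, of wild type C57BL/6N mice aged 20 weeks. There were 4 groups of 3 libraries. Mice of the NCD RT group ate a control diet (NCD) and were housed at 22 °C, and mice of the NCD cold group ate the same diet and spent 24 h at 4 °C. Mice of the HFD RT and HFD cold groups were given a high-fat diet (HFD) when 8 weeks old and kept on it for 12 weeks, and then stayed at 22 °C or spent 24 h at 4 °C. The labels put replicates 1 and 2 of each group in batch 1 and replicate 3 in batch 2, without saying what a batch is. Libraries held 15136861 to 46740702 counts, those of batch 2 being the deepest. The 9 genes took 0.573% to 0.979% of the counts of a library. The labels do not say whether each library is a separate animal, so the p-values measure the spread between libraries, which may in part be technical.

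Brown adipocytes store triglyceride in many small droplets and burn its fatty acids for heat when noradrenaline is released in the cold. Perilipins sit on the droplet surface and decide which lipases reach the fat. Plin1 is the main coat protein of adipocytes and holds the lipase co-activator Abhd5 until it is phosphorylated by protein kinase A. Plin5 tethers droplets to mitochondria in oxidative tissues, Plin2 and Plin3 are widely expressed, and Plin4 coats nascent droplets. CIDE proteins gather at contact sites between droplets and let lipid flow from the smaller to the larger one, and FITM proteins act in the endoplasmic reticulum, where droplets bud.

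For cold on NCD, 3 of the 9 genes, Plin2, Plin5 and Cidec, were called higher by the thresholds given below, as were 3.72% of all genes. These calls lay close to the threshold and were lost without some single libraries. The stretches upstream of the start sites of these genes are shown. They are taken from RefSeq on GRCm38.p6, run from 250 to 101 bases before the start site and hold no annotated exon. RefSeq entries were used for 8 of the 9 genes, all but Cidea. Cidec has a pair of start sites in RefSeq, of which the second lies inside the annotated gene. Plin5 has a second start site as well, which is not shown because its stretch overlaps an exon. All are written 5′ to 3′ on the strand of the gene, which is the minus strand in each case. Capitals mark a match to AGGTCA, the half-site of many nuclear receptors, or to TTGCNNAA, a core of the C/EBP motif, on either strand.
Plin2, chr4:86670160-86670309: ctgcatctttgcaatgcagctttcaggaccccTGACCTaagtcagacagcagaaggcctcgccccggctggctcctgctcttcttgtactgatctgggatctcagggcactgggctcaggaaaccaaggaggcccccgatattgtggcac
Plin5, chr17:56117649-56117798: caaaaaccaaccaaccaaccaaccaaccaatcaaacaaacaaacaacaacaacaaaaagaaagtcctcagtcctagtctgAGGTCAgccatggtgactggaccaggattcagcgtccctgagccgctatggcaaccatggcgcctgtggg
Cidec, first start site, chr6:113435861-113436010: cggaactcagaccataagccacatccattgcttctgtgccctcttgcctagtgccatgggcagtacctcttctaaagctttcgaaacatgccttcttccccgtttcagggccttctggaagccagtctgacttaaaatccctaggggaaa
Cidec, second start site, chr6:113434865-113435014: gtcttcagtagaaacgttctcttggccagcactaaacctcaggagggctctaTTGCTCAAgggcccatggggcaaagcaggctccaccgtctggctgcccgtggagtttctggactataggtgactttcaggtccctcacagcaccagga
In the 250 bases before the start site, Plin2 and the first Plin5 start site held 1 AGGTCA match each, on the minus and the plus strand of the window. The second Cidec start site held 1 TTGCNNAA match, and Plin1 held a pair of them. Of all 32851 RefSeq windows of this length, 14.0% held AGGTCA on either strand and 9.56% held TTGCNNAA. The cyclic AMP response element TGACGTCA (1.55% of windows) was in none of the members' windows, and its half-site TGACG, which every TGACGTCA also contains (17.8% of windows), was only in that of Fitm1. These matches describe the letters only.

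By position on GRCm38, Plin4 (chr17:56100591-56109803), Plin5 (chr17:56111601-56117596) and Plin3 (chr17:56277476-56292873) lie near each other on the minus strand of chromosome 17. Plin1 is at chr7:79720218-79732903, Plin2 at chr4:86648386-86670060, Cidec at chr6:113424634-113435760, Fitm1 at chr14:55575617-55576954 and Fitm2 at chr2:163466379-163472629, and Cidea is on chromosome 18. Fitm1, Fitm2 and Cidea overlap an annotated noncoding gene on the opposite strand, by 375, 673 and 500 bases, and Plin4 overlaps Hdgfl2 by 17. Whether the counting used strand is not given in the sources used here, so reads in those bases cannot be assigned to one partner with certainty.

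Levels are given as CPM, counts per 1000000 counts of a library after TMM scaling, and were compared between genes per kilobase of annotated exons (CPM per kb). In NCD RT, Cidea had the highest level with 1213 ± 146 CPM per kb (SD, n = 3), followed by Cidec with 477 ± 60.1 and Plin2 with 377 ± 42.2. Plin1 came next with 282 ± 22.8 CPM per kb, then Plin4 with 196 ± 43.6, Plin5 with 119 ± 11.8, Fitm2 with 66.1 ± 5.36 and Plin3 with 42.2 ± 6.09. Fitm1 was lowest, between 3.20 and 23.6 CPM per kb. No neighbours in this order overlapped in NCD RT. Cidec and Plin2 overlapped in the other 3 groups, and Plin5 and Plin4 overlapped in both cold groups, where Plin5 had the higher mean. The order depends on the length used for Plin1 and Plin2, whose mean levels over all libraries were 275 and 522 CPM per kb of all exons but 453 and 971 per kb of the longest transcript. By the latter length Plin2 (628 to 784 CPM per kb) lay above Cidec (464 to 588) in NCD RT, and Plin1 (423 to 491) overlapped Cidec.

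**Figure D1:**
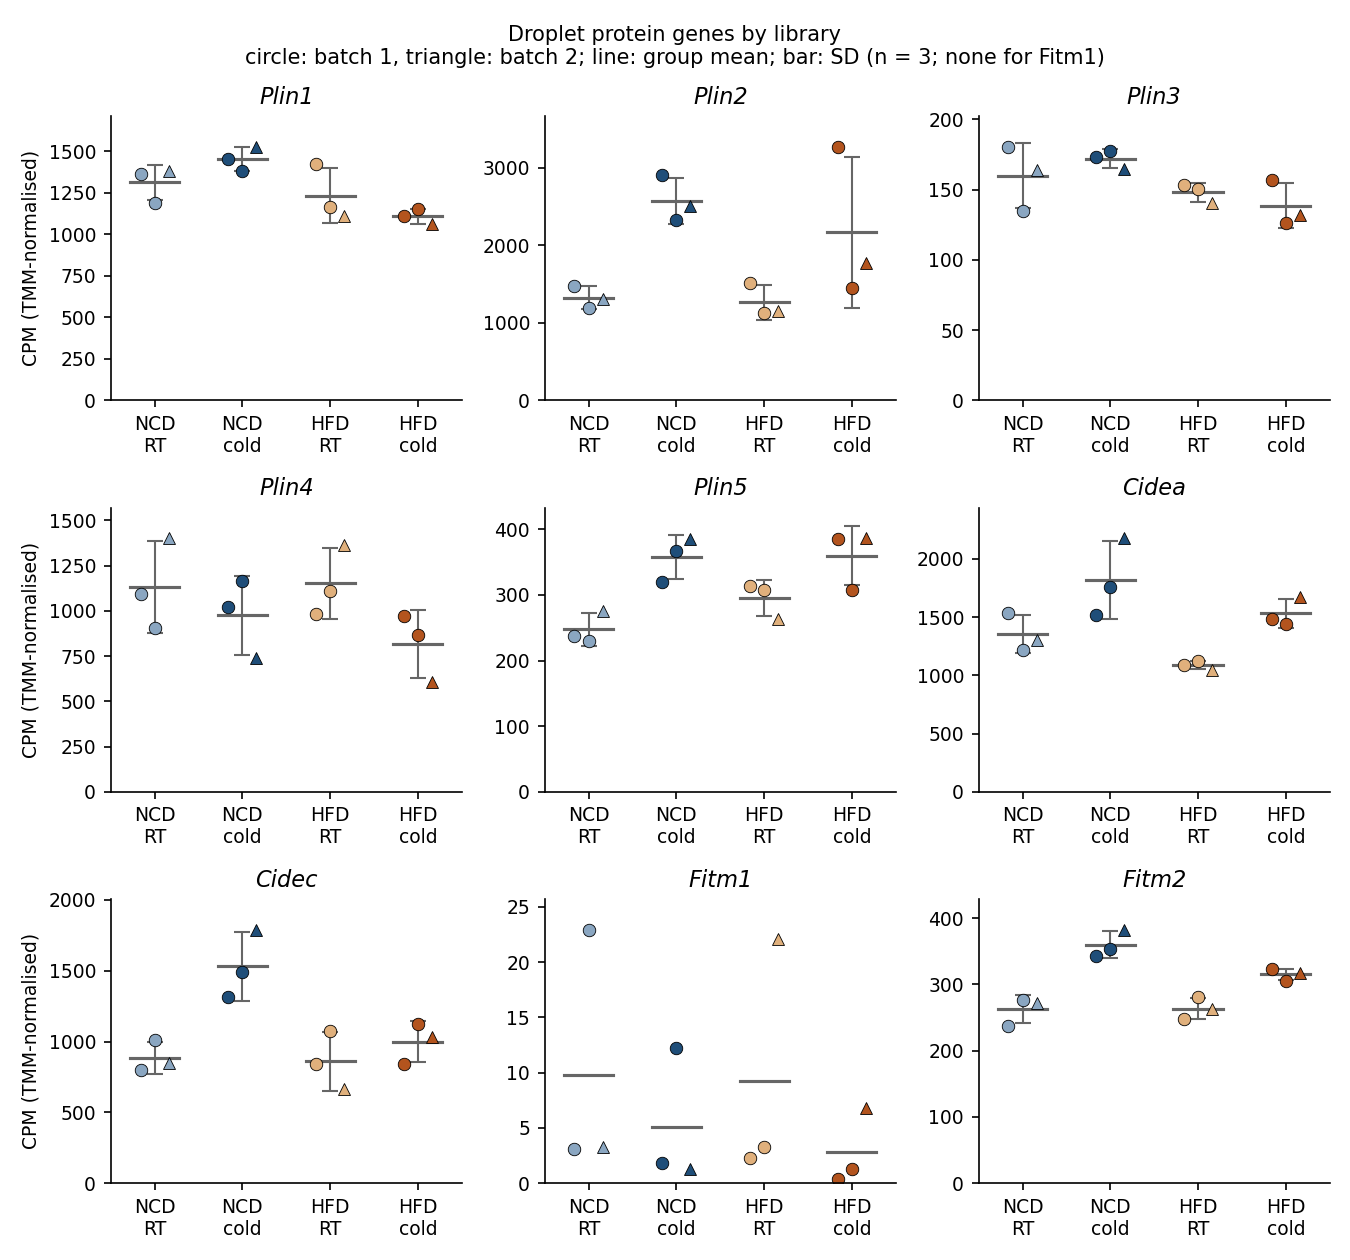
CPM (normalised counts, linear axes from 0) of the 9 genes in each of the 12 libraries, with circles for batch 1, triangles for batch 2, lines for group means and bars for the SD (n = 3). Plin2, Plin5, Cidec and Fitm2 of NCD cold lie above all NCD RT libraries, and Fitm1 is high in 1 library of each group.

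Across the 9 genes, cold on NCD gave 3 calls, all of higher levels (Benjamini-Hochberg adjusted p under 0.05 in edgeR's quasi-likelihood test and an absolute log2 fold change over 0.5). Of all genes tested, 6.27% were called and 3.72% were called higher. The adjusted p alone was passed by 4 of the 9 and by 7.42% of all genes. The median log2 fold change of the 9 was 0.43, against -0.0089 over all genes. The calls were close to the threshold, since none was left without NCD RT replicate 1, 2 or 3, NCD cold replicate 2 or 3, or HFD cold replicate 3, while 2 or 3 were left without any of the other 6 libraries. Cold on HFD gave 0 calls among the 9, beside 9.58% of all genes, with 4 of the 9 and 27.5% of all genes at an unadjusted p under 0.05. The median there was 0.22, against -0.039. DESeq2 called 3 of the 9 for cold on NCD and 1, Plin2, for cold on HFD. Of all 16737 genes it called 1444 for cold on NCD and 2048 for cold on HFD.

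HFD at RT gave 0 calls among the 9, beside 2.09% of all genes, with 0 of the 9 and 18.1% of all genes at an unadjusted p under 0.05, and DESeq2 called 0 as well. HFD in the cold gave 0 calls, beside 4.75% of all genes, with 3 of the 9 and 22.7% of all genes at an unadjusted p under 0.05, and DESeq2 called 1, Cidec. Of all 16737 genes, DESeq2 called 828 for HFD at RT and 1321 for HFD in the cold. The 4 comparisons share groups, so they are not independent of each other. The summed level of 4 adipocyte markers (Adipoq, Fabp4, Pparg and Lipe) was 7709.9 to 9406 CPM in NCD RT and 10289 to 12076 CPM in NCD cold, without overlap, and 6104 to 7879 CPM in HFD RT and 6198 to 8328 CPM in HFD cold. The higher sum in NCD cold came from Fabp4, with 5225 to 6553 CPM in NCD RT and 8012 to 9619 CPM in NCD cold, which was the 1 of the 4 that passed, with a log2 fold change of 0.61 ± 0.16 (adjusted p = 0.0444) in edgeR. The other markers had log2 fold changes of -0.26 for Adipoq, 0.14 for Pparg and 0.0064 for Lipe. For cold on HFD, Adipoq was the 1 of the 4 that was called, as lower, beside 9.58% of all genes called. Adipoq was 531 to 630 CPM in HFD RT and 286 to 459 CPM in HFD cold. Fabp4, the largest part of the sum, overlapped there, with 3990 to 5263 CPM in HFD RT and 4642 to 6247 CPM in HFD cold. The summed level of 4 endothelial markers was 424 to 532 CPM in NCD RT and 621 to 714 CPM in NCD cold, also without overlap, with Pecam1 called higher by 0.58 ± 0.11 (adjusted p = 0.0101) on the log2 scale in edgeR. The part of these cell types in the levels of the 9 genes was not tested, and in bulk tissue fewer cells of a type and less RNA per cell cannot be told apart.

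**Figure D2:**
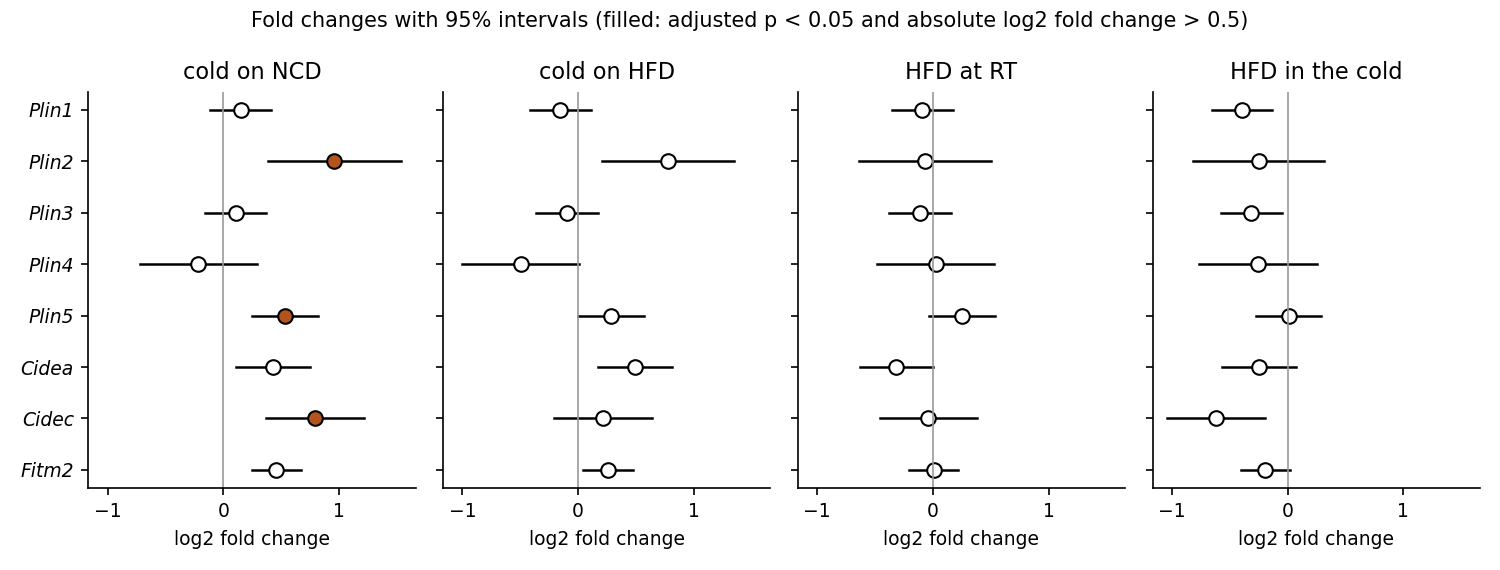
Log2 fold changes of 8 of the 9 genes (points) with 95% intervals (lines) in the 4 comparisons, where filled points passed both thresholds. Only Plin2, Plin5 and Cidec in cold on NCD are filled, and Fitm1 is left out because its intervals reach -4.42.

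Plin1, the major coat protein of adipocyte droplets, moved little with cold. Its level in replicates 1, 2 and 3 was 1364, 1190.3 and 1383 CPM in NCD RT and 1456, 1383 and 1528 CPM in NCD cold. It was 1421, 1163 and 1112 CPM in HFD RT and 1109, 1154 and 1060.2 CPM in HFD cold. The groups overlapped in both cold comparisons, with a log2 fold change of 0.15 ± 0.12 (adjusted p = 0.537) on NCD and a log2 fold change of -0.15 ± 0.12 (adjusted p = 0.434) on HFD, where ± is the standard error of the fitted value for all log2 fold changes. In the cold, all HFD libraries lay below all NCD libraries. That difference had a log2 fold change of -0.39 ± 0.12 (adjusted p = 0.0810) and did not pass the test. All HFD libraries were lower also for Plin3, Cidec and Fitm2, so for 4 of the 9 genes in the cold, as for 13.1% of all genes.

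Plin3, the cytosolic perilipin that is recruited to new droplets in many tissues, stayed within 127 to 181 CPM in all 12 libraries. Its 95% interval for cold was -0.16 to 0.37 on NCD and -0.36 to 0.17 on HFD, both on the log2 scale. In the cold its level was 165 to 178 CPM on NCD and 127 to 157 CPM on HFD, with no overlap and a log2 fold change of -0.31 ± 0.12 (adjusted p = 0.150).

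Plin2, the perilipin that accumulates when a cell is loaded with fatty acids, had the largest log2 fold change of the 5 perilipins with cold on either diet. Its level was 1481, 1186 and 1308 CPM in NCD RT and 2906, 2322 and 2503 CPM in NCD cold, so the groups were far apart. It rose 1.94-fold on NCD, with a log2 fold change of 0.96 ± 0.26 (adjusted p = 0.0481). On HFD the level was 1518, 1125 and 1149 CPM at RT and 3273, 1452 and 1777 CPM in the cold. Replicate 1 of HFD cold stood highest of all libraries, while replicate 2 lay below replicate 1 of HFD RT, so the groups overlapped. The test on HFD gave a log2 fold change of 0.78 ± 0.26 (adjusted p = 0.0765), which did not pass. Without HFD cold replicate 1 the log2 fold change on HFD was 0.38 (adjusted p = 0.250), and without HFD cold replicate 2 it was 1.00 (adjusted p = 0.0262), which passed. HFD cold replicate 1 also had the highest level of Hilpda, an inhibitor of the lipase Pnpla2 that is named here after its values were seen, with 9.14 CPM against 2.47 to 4.19 CPM in the other libraries. Whether both levels are linked was not tested.

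The same-numbered libraries of a diet varied together, although some differently numbered libraries did so as well, as given under the processing. A second model held the number of the library as a block within each diet. With this replicate block Plin2 passed on both diets, with log2 fold changes of 0.96 ± 0.15 (edgeR adjusted p = 0.00725) on NCD and 0.70 ± 0.15 (edgeR adjusted p = 0.0160) on HFD. Plin2 was higher in the cold in 6 of 6 pairs. Its call in cold on NCD without the block lay close to the threshold. It was lost when any of 10 of the 12 libraries was left out (adjusted p up to 0.160, without NCD RT replicate 2) and kept only without HFD cold replicate 1 or 2, while the log2 fold change stayed within 0.87 to 1.05.

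Plin5, which links droplets to mitochondria, was 237, 229 and 275 CPM in NCD RT and 319.9, 367 and 386 CPM in NCD cold. It rose 1.45-fold on NCD without overlap of the groups, with a log2 fold change of 0.53 ± 0.13 (adjusted p = 0.0309). On HFD it was 314, 307 and 263 CPM at RT and 385, 308 and 386 CPM in the cold. Replicate 2 of HFD cold lay among the HFD RT libraries, and the test gave a log2 fold change of 0.29 ± 0.13 (adjusted p = 0.178). HFD RT and NCD RT overlapped as well, with a log2 fold change of 0.25 ± 0.13 (adjusted p = 0.333). The cold effect on HFD minus that on NCD was -0.24 (95% interval -0.65 to 0.16). The call on NCD was lost without NCD RT replicate 1, 2 or 3, NCD cold replicate 2 or 3, or HFD cold replicate 1 or 3, with log2 fold changes of 0.48 to 0.62 and adjusted p up to 0.121.

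Plin4, which coats droplets with a long amphipathic repeat, had a different cold difference in each batch. In batch 1 its level was 1090.5 and 903 CPM in NCD RT and 1021 and 1165 CPM in NCD cold. In batch 2 it was 1402 CPM in NCD RT and 739 CPM in NCD cold. On HFD it was 981, 1108 and 1364 CPM at RT and 974, 868 and 608 CPM in the cold for replicates 1, 2 and 3, so the batch 2 library was again the highest at RT and the lowest in the cold. The log2 ratio of the mean level in the cold to that at RT was 0.13 in batch 1 and -0.92 in batch 2 on NCD, and -0.18 and -1.17 on HFD. Batch 2 holds 1 library a group, so neither a test within it nor one of the difference between batches was made. Pooled over batches, Plin4 had a log2 fold change of -0.22 ± 0.23 (adjusted p = 0.668) on NCD, and on HFD, where all cold libraries were lower (1 of the 9 genes, beside 14.4% of all genes), a log2 fold change of -0.50 ± 0.23 (adjusted p = 0.191). With batch 1 alone the value on NCD was 0.13 (adjusted p = 0.722).

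**Figure D3:**
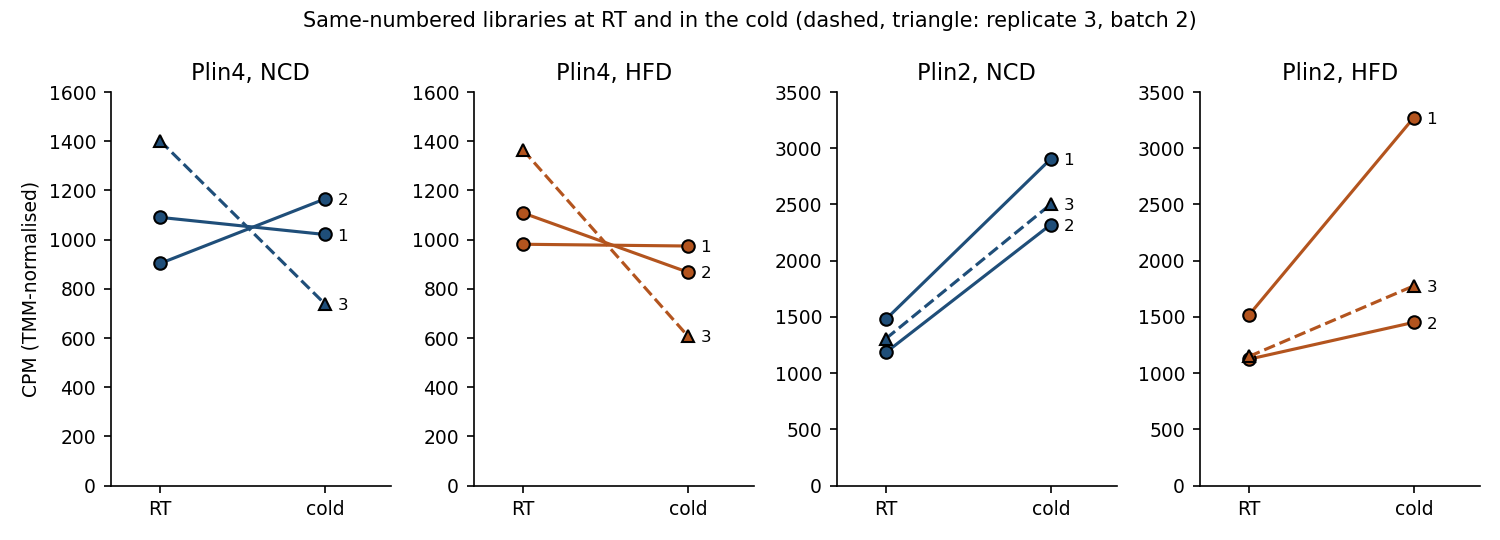
CPM (linear axes from 0) of Plin4 and Plin2 at RT and in the cold, with lines joining libraries of the same number on the same diet and dashed lines for replicate 3, which is batch 2. Plin2 rises along all 6 lines, while Plin4 changes most along the dashed lines, from 1402 to 739 on NCD and from 1364 to 608 on HFD.

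The make-up of the perilipin coat at the RNA level was read from count ratios within each library, which do not depend on depth or on scaling between libraries. The count ratio of Plin2 to Plin1 was 0.946 to 1.09 in NCD RT and 1.64 to 2.00 in NCD cold. It was 0.967 to 1.07 in HFD RT and 1.26 to 2.95 in HFD cold, so every cold library lay above every RT library. Its log2 ratio was higher by 0.83 in the cold (exact two-sided permutation test within diet, p = 0.005, the smallest it can give, adjusted p = 0.02 over 12 tests). It overlapped between the diets, with a difference of 0.040 (exact permutation test, adjusted p = 0.889).

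The count ratio of Plin5 to Plin1 differed with both temperature and diet. It was 0.174 to 0.199 in NCD RT, 0.220 to 0.265 in NCD cold, 0.221 to 0.264 in HFD RT and 0.267 to 0.364 in HFD cold. Its log2 ratio was higher in the cold by 0.38 on NCD and 0.43 on HFD (exact permutation test of their mean, p = 0.005, adjusted p = 0.02). It was higher on HFD by 0.35 at RT and 0.40 in the cold (exact permutation test of their mean, p = 0.005, adjusted p = 0.02). Neither gene was called for diet in edgeR. With HFD in the cold, the log2 fold change was 0.0092 for Plin5 and -0.39 for Plin1, and at RT it was 0.25 and -0.091. The diet difference of the ratio in the cold thus went with the lower Plin1. NCD cold and HFD RT overlapped in the ratio, and within each diet and each temperature the groups did not. For Plin4 to Plin1 the cold difference was -0.37 (exact permutation test, adjusted p = 0.252) and for Plin3 to Plin1 it was 0.0044 (exact permutation test, adjusted p = 0.965), neither of which passed. When same-numbered libraries were exchanged as pairs, the 3 ratio differences that had passed each had the smallest p that 6 pairs allow, 0.03125, with an adjusted p of 0.0938, and so did not pass (exact permutation test). For the diet difference these pairs joined libraries of different diets. Between diets, same-numbered libraries varied together in only 4 of 12 pairs, with correlations of -0.30 to 0.46.

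**Figure D4:**
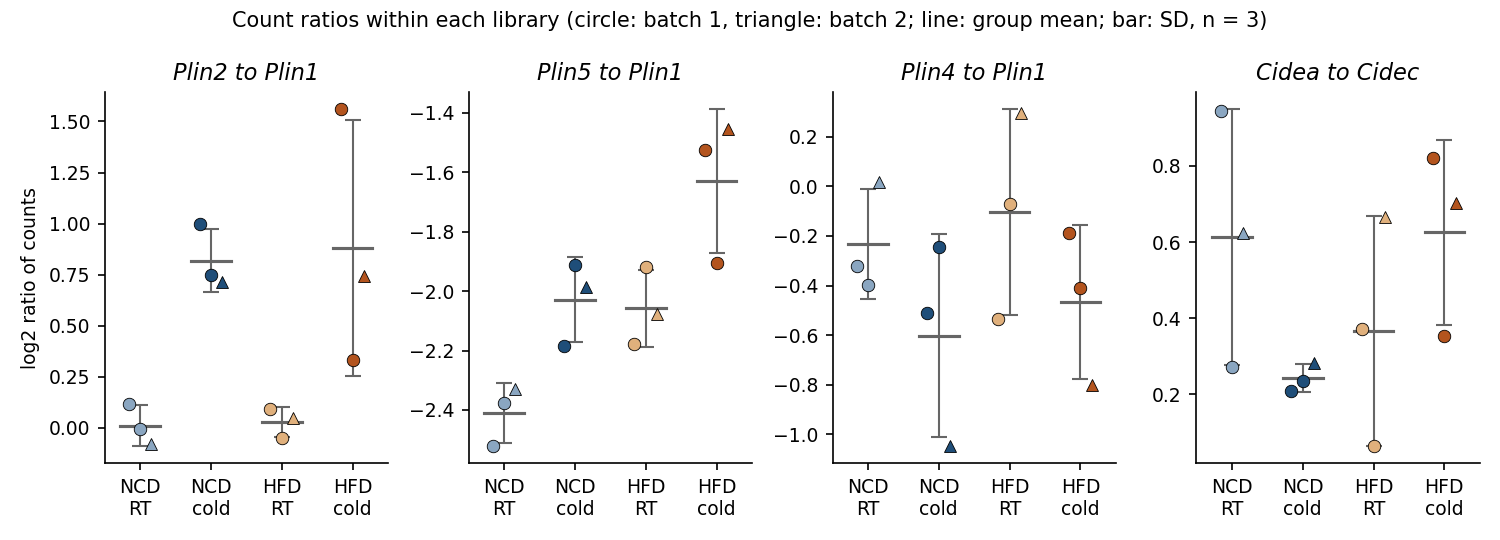
Log2 ratios of counts of a pair of genes within each library (log scale, not starting at 0) by group, with circles for batch 1, triangles for batch 2, lines for means and bars for the SD (n = 3). Plin2 to Plin1 is separated by temperature and Plin5 to Plin1 by temperature within each diet, whereas Plin4 to Plin1 and Cidea to Cidec overlap between RT and cold on each diet.

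Expressed as shares of the summed CPM per kb of the 5 perilipins, Plin2 made up 37.2% ± 2.71 (SD, n = 3) in NCD RT and 51.1% ± 3.38 in NCD cold. On HFD it made up 35.6% ± 3.20 at RT and 49.6% ± 9.10 in the cold. The share of Plin1 was 27.8% ± 0.668 in NCD RT and 21.9% ± 1.47 in NCD cold, and that of Plin4 19.2% ± 2.73 and 11.8% ± 2.72. The share of Plin5 was 11.7% ± 0.881 in NCD RT, 12.0% ± 1.67 in NCD cold, 14.1% ± 1.27 in HFD RT and 14.7% ± 2.85 in HFD cold. Per kb of the longest transcript, the share of Plin5 was 8.15% in NCD RT, 7.95% in NCD cold, 9.97% in HFD RT and 9.88% in HFD cold, so its direction with cold depends on the length used. By that length Plin2 made up 45.8% in NCD RT and 59.8% in NCD cold, and Plin4 12.8% and 7.46%. Shares of a sum move together by construction, so they are given without a test.

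Cidea, the CIDE protein that marks brown adipocytes, was 1536, 1221 and 1303 CPM in NCD RT and 1516, 1756 and 2178 CPM in NCD cold. The groups overlapped, since replicate 1 had about the same level in both. The log2 fold change on NCD was 0.43 (95% interval 0.11 to 0.74, edgeR adjusted p = 0.104). On HFD it was 1093, 1123 and 1049.8 CPM at RT and 1485, 1439 and 1674 CPM in the cold, without overlap. The log2 fold change there was 0.49 (95% interval 0.17 to 0.81) with an edgeR adjusted p of 0.0501, just outside the threshold, and the absolute log2 fold change was also under 0.5. It passed both thresholds without NCD RT replicate 1, NCD cold replicate 1 or NCD cold replicate 3, with adjusted p of 0.0259 to 0.0413. It also passed both with a filter at a mean of 10 counts, with a log2 fold change of 0.52 (adjusted p = 0.0385) in edgeR. At RT all HFD libraries lay below all NCD libraries, with a log2 fold change of -0.31 ± 0.15 (adjusted p = 0.283), as seen in 1 of the 9 genes and 12.9% of all genes.

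Cidec, which drives the growth of large droplets in white and brown fat, was 798, 1011 and 846 CPM in NCD RT and 1311, 1491 and 1791 CPM in NCD cold. All NCD cold libraries were higher, and the gene rose 1.73-fold with a log2 fold change of 0.79 ± 0.19 (adjusted p = 0.0305). On HFD it was 845, 1074 and 662 CPM at RT and 841, 1126 and 1029 CPM in the cold, and the groups overlapped with a log2 fold change of 0.22 ± 0.19 (adjusted p = 0.498). The cold effect on HFD minus that on NCD was -0.58 (95% interval -1.17 to 0.018, unadjusted p = 0.0563 and adjusted p = 0.780 in edgeR), so the cold effect was not shown to differ between the diets. The call on NCD was lost without NCD RT replicate 1, 2 or 3, NCD cold replicate 2 or 3, or HFD cold replicate 3, with log2 fold changes of 0.67 to 0.90 and adjusted p up to 0.105.

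In the cold, Cidec was lower in all HFD libraries than in all NCD libraries, with a log2 fold change of -0.62 ± 0.19 (adjusted p = 0.0861) in edgeR. DESeq2 gave -0.62 with an adjusted p of 0.0160 and called it. The summed adipocyte markers, given above, were lower in the same libraries, and 1 of the 4, Fabp4, was called lower. The summed level of 6 macrophage markers was 82.9 to 112 CPM in NCD cold and 114 to 249 CPM in HFD cold, with 2 of the 6 called higher. That of 4 endothelial markers was 621 to 714 CPM in NCD cold and 822 to 956 CPM in HFD cold, without overlap, with none called. Their part in the lower Cidec, Plin1 and Plin3 of HFD cold was not tested. The count ratio of Cidea to Cidec fell within 1.16 to 1.22 in NCD cold and spread over 1.21 to 1.92 in NCD RT, 1.05 to 1.59 in HFD RT and 1.28 to 1.77 in HFD cold, which did not overlap NCD cold. Its log2 difference with cold was -0.37 on NCD and 0.26 on HFD, with a mean of -0.056 (exact permutation test, adjusted p = 0.889).

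Fitm2, the FITM protein that is widely expressed and needed for droplets to bud, had replicates close together, with a coefficient of variation of 2.76% to 8.10% within groups. It was 238, 276 and 273 CPM in NCD RT and 343, 354 and 383 CPM in NCD cold, without overlap. The 1.37-fold difference, a log2 fold change of 0.46 ± 0.10 (adjusted p = 0.0173), passed the adjusted p but not the minimum fold change. Its adjusted p was 0.0663 without NCD RT replicate 1 and 0.0516 without NCD RT replicate 3. On HFD it was 247, 280.4 and 263 CPM at RT and 323, 306 and 317 CPM in the cold, again without overlap, with a log2 fold change of 0.26 ± 0.10 (adjusted p = 0.110). HFD at RT left it within -0.21 to 0.22 on the log2 scale (95% interval). Non-overlapping groups with the higher values in the cold were found for Plin2, Plin5, Cidec and Fitm2 on NCD and for Cidea and Fitm2 on HFD, so 4 of 9 and 2 of 9 genes beside 15.2% and 15.9% of all genes.

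Fitm1, the paralog expressed mainly in skeletal muscle, was 3.11, 23.0 and 3.26 CPM in NCD RT and 1.83, 12.2 and 1.25 CPM in NCD cold. It was 2.25, 3.24 and 22.1 CPM in HFD RT and 0.360, 1.32 and 6.83 CPM in HFD cold. Within each group 1 library stood apart, replicate 2 on NCD and replicate 3 on HFD. The same libraries held the most skeletal muscle RNA. The summed level of 12 skeletal muscle markers, all 12 detected in every library, was 3226, 19518 and 4208 CPM in NCD RT, 1699, 10478 and 1392 in NCD cold, 2329, 2607 and 20875 in HFD RT and 687, 906 and 6042 in HFD cold. The markers ranged over 30.4-fold and Fitm1 over 63.8-fold, whereas Fitm1 per 1000 CPM of the markers stayed within 0.524 to 1.46 CPM. Its lowest value rests on 8 counts.

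Fitm1 was not called in any comparison, with log2 fold changes of -0.95 ± 1.24 for cold on NCD and -1.67 ± 1.25 on HFD. The log2 count ratio of Fitm1 to Fitm2 differed by -1.81 with cold and by -0.52 with HFD. Neither difference passed (exact permutation test, adjusted p = 0.252 and 0.889). With same-numbered libraries exchanged as pairs, the cold difference had an adjusted p of 0.0938 (exact permutation test). With the replicate block, which pairs the muscle-rich libraries of a diet, 4 of the 9 genes were called on NCD and 2 on HFD. Of all 16737 genes, this fit called 1483 and 2153, against 1049 and 1603 without the block. Fitm1 was called on both diets, with values of -1.02 (edgeR adjusted p = 0.0235) and -1.75 (edgeR adjusted p = 0.00327). The marker sum was lower in the cold in 6 of 6 pairs as well. With the muscle marker score as a term, chosen after seeing the data, the log2 fold changes of Fitm1 were 0.19 (adjusted p = 0.736) and 0.082 (adjusted p = 0.894) in edgeR. Since Fitm1 follows these markers over the libraries, a term made from them takes up its differences. The cause of its lower level in the cold was not tested. In that fit Plin5 and Cidec kept their calls for cold on NCD, and Plin2 had 0.84 (adjusted p = 0.0577).

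**Figure D5:**
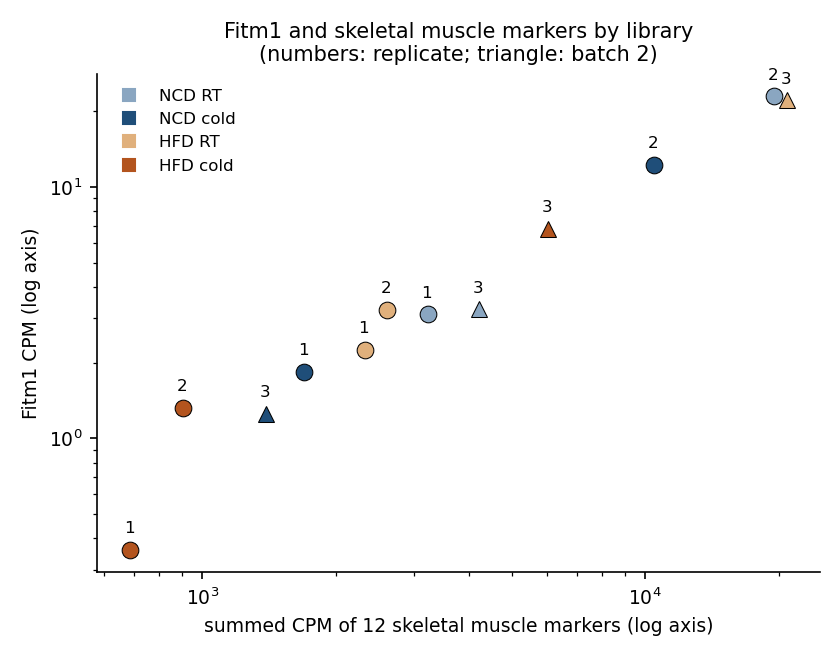
Fitm1 CPM against the summed CPM of 12 skeletal muscle markers in the 12 libraries (both axes logarithmic), with colours for groups, triangles for batch 2 and numbers for replicates. The 4 libraries above 6 CPM are replicate 2 of both NCD groups and replicate 3 of both HFD groups, which are also the 4 richest in muscle markers.

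The interaction of diet and temperature gave 0 calls among the 9 genes and 0 among all 16737 at an adjusted p under 0.05, while 6.52% of all genes but none of the 9 had an unadjusted p under 0.05. DESeq2 called none of the 9 either, beside 62 of all 16737 genes. The test over the 4 groups at an adjusted p under 0.001 called 0 of the 9 (background 2.55%), although Plin2, Plin5, Cidea, Cidec and Fitm2 had adjusted p of 0.0122 to 0.0255 in edgeR, a level under 0.05 that 24.3% of all genes reached. DESeq2 called 5 of the 9 at 0.001, a level at which it called 2625 of all 16737 genes.

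Of 22 other genes of droplet formation and droplet coating, 20 passed the filter on low counts, and Hsd17b13 and Mettl7b did not. Cold called 1 of them on NCD and 4 on HFD, beside 6.27% and 9.58% of all genes. Their median log2 fold changes were 0.15 and 0.18, against -0.0089 and -0.039 over all genes. Clstn3, whose locus also encodes a droplet protein of brown adipocytes, rose on both diets, by 0.90 ± 0.14 (adjusted p = 0.00456) on NCD and 0.75 ± 0.14 (adjusted p = 0.00746) on HFD on the log2 scale in edgeR. Acsl3, an acyl-CoA ligase of nascent droplets, rose on HFD by 0.81 ± 0.19 (adjusted p = 0.0197), and Aup1, a droplet protein of ubiquitin-linked degradation, by 0.63 ± 0.10 (adjusted p = 0.00371). Cavin1, a caveolar coat protein, fell on HFD with a log2 fold change of -0.55 ± 0.14 (adjusted p = 0.0312). Neither HFD comparison gave a call in this list.

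Among the 6 genes of lipolysis at the droplet, 2 were called higher for cold on NCD and 1 for cold on HFD, beside 6.27% and 9.58% of all genes called, and none was called lower. The median log2 fold changes were 0.15 and 0.11. HFD at RT called none. For cold on HFD, the lipase Lipe was 1330.0 to 1684 CPM at RT and 955 to 1304 CPM in the cold, without overlap and with a log2 fold change of -0.53 ± 0.16 (adjusted p = 0.0574) in edgeR, which did not pass. The triglyceride lipase Pnpla2 had -0.47 ± 0.16 (adjusted p = 0.0768), which did not pass either, and both are named after their values were seen. Abhd5, the co-activator that Plin1 releases, was 133 to 162 CPM in NCD RT and 227 to 265 CPM in NCD cold, and 105 to 165 CPM in HFD RT and 203 to 266 CPM in HFD cold. It rose on both diets, with log2 fold changes of 0.79 ± 0.17 (adjusted p = 0.0167) and 0.83 ± 0.17 (adjusted p = 0.00969) in edgeR. Mgll, the monoglyceride lipase, rose on NCD by 0.51 ± 0.14 (adjusted p = 0.0444). In the cold, Mgll and Pnpla2 were lower on HFD than on NCD, with log2 fold changes of -0.55 ± 0.14 (adjusted p = 0.0427) and -0.66 ± 0.16 (adjusted p = 0.0386) in edgeR, 2 of the 6 genes beside 4.75% of all genes called. This is the comparison in which the adipocyte marker sum was lower as well.

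Tissue and treatment were checked with marker genes. Ucp1, the uncoupling protein of brown fat, was 3789 to 4804 CPM in NCD RT and 14942 to 18809 CPM in NCD cold, and 5994 to 7966 and 11625 to 15194 CPM on HFD. Of 4 thermogenic genes, all 4 were called higher in the cold on NCD (Ucp1, Dio2, Elovl3 and Ppargc1a) and 3 on HFD (all but Ppargc1a). Ppargc1a was 63.7 to 89.8 CPM in HFD RT and 139 to 228 CPM in HFD cold, higher without overlap but not called. Of 5 white adipocyte markers, 4 (Lep, Retn, Hoxc8 and Nnmt) had counts in every library, and Hoxc9 was at 0 in 8 of 12 libraries and at most 0.116 CPM. Their summed level was 178 to 309 CPM in NCD RT and 69.8 to 176 CPM in NCD cold, without overlap, and 99.5 to 294 CPM in HFD RT and 103 to 222 CPM in HFD cold. Much of this sum in NCD RT was Lep, the hormone leptin, with 133 to 251 CPM in NCD RT and 10.1 to 109 CPM in NCD cold and a log2 fold change of -2.16 ± 0.82 (adjusted p = 0.142) in edgeR. Nnmt moved the other way and was called higher in the cold on both diets, by 2.19 ± 0.38 (adjusted p = 0.00734) and 2.73 ± 0.38 (adjusted p = 0.00170) on the log2 scale in edgeR. For cold on HFD, 3 of the 4 white markers tested were called, 2 higher and 1 lower. Lep was 72.5 to 270 CPM in HFD RT and 16.3 to 42.0 CPM in HFD cold. Retn was 7.42 to 8.98 CPM in HFD RT and 12.7 to 18.5 CPM in HFD cold, but 31.0 to 43.6 CPM in NCD RT and 24.8 to 28.5 CPM in NCD cold. Schwann cell markers summed to at most 20.9 CPM and hepatocyte markers to at most 5.59 CPM. The part of any of these in the levels of the droplet genes was not tested.

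The 9 genes did not share one pattern over the libraries. Likeness was measured as the root mean square difference of standardised log2 CPM over the 12 libraries among 13953 genes with a mean of at least 1 CPM. The nearest genes of Fitm1 were Hrc, Apobec2 and Pgam2 (0.0861 to 0.119), which are known from muscle. The nearest gene of Plin4 was Zfp869 (0.189), followed at a distance by Golgb1 and Cnbd2 (0.432 and 0.475). For Plin2 they were Usp3, Utp18 and Zfand2b, for Plin5 Bzw1, Tbkbp1 and Rgcc, for Cidec Smarcd1, Pofut2 and Gpr108, and for Fitm2 Bmi1, Sympk and Osbpl9. For Cidea they were Igbp1, Nudt19 and Mrpl51, for Plin1 Gbe1, Acot11 and Abcd4, and for Plin3 Ccdc115, Ccdc58 and Ing4. No member was among the 3 nearest genes of another. The closest pair of members was Cidec and Fitm2 at 0.544, where Fitm2 stood at place 107 among the genes nearest to Cidec. The 12 libraries share groups and depth, so these distances describe the libraries only.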

How the data were processed

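Total RNA of iBAT was sequenced in 12 libraries. Reads had been trimmed with cutadapt and assigned by salmon to a transcript set of GENCODE and RNAcentral, and the authors deposited the resulting estimated counts, given as whole numbers for each gene and not normalised. The build was GRCm38, per the labels, and tool versions are not given in the sources used here.

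Genes were kept with filterByExpr of edgeR 4.0.16 (R 4.3.3, minimum count 10) and scaled with TMM, and CPM are counts per 1000000 counts of the scaled library. A quasi-likelihood model of 4 group means was fitted to all 16737 genes, and p-values were adjusted over all of them by Benjamini-Hochberg. Intervals are 95% intervals from the model's degrees of freedom. Count ratios were compared with exact permutation tests, which exchange libraries within diet or within temperature and cannot give a p below 0.005. Lengths and positions were taken from GENCODE M21 on GRCm38, and start sites from RefSeq. The steps were tested on simulated data.

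The 9 genes and the gene lists were chosen with earlier results of these data known. All 9 genes are named whatever their values. Of the lists, called genes with the largest change in the cold are named, at most 6 for each list, as are the 3 genes nearest in pattern to each of the 9. Libraries with the same number at RT and in the cold of a diet varied together, since their deviations from the group means correlated at 0.215 to 0.556 in 6 of 6 pairs over genes with a mean of 1 CPM or more. Between diets this held in 4 of 12 pairs. Differently numbered libraries at RT and in the cold of a diet had correlations of -0.391 to 0.201. NCD RT replicate 2 and NCD cold replicate 2 also correlated with HFD RT replicate 3, at 0.486 and 0.501, across number, batch and diet. These libraries are rich in muscle markers, so the correlations do not single out the number of a library. The pairing rests on these correlations alone, and the block within diet was fitted as an alternative. Other alternatives were DESeq2 1.42.0, its size factors, batch as a term, no count filter, a filter at a mean of 10 counts, a block over all groups, batch 1 alone, the 6 libraries compared, no minimum fold change, a muscle score as a term (added after seeing the data) and each library left out in turn.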

Additional observations from a re-analysis of the deposited data

How the results depend on the processing

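A total of 551 values were recomputed under another setting, not counting the fits with a library left out. Of these, 506 kept their direction and their side of the threshold. A change in the number of genes called from 3 to 2 or 4 was counted as kept. Leaving out 1 library lost the cold on NCD call in 10 of 12 fits for Plin2, 7 for Plin5 and 6 for Cidec. The number of the 9 genes called for cold on NCD was 3, and 2 with DESeq2's size factors in edgeR, where Plin2 had 0.94 (adjusted p = 0.0526). It was 0 with batch 1 alone, where 8 libraries were tested and the log2 fold changes were 0.97 for Plin2, 0.56 for Plin5 and 0.63 for Cidec. Over all genes, cold on NCD gave 1049 calls in the main fit, 1015 with these size factors and 352 with batch 1 alone. For cold on HFD the number of the 9 genes was 0. It was 1, Plin2, with DESeq2, with no count filter and with the replicate block over all groups. It was also 1 with a mean of at least 10 counts, but there the gene was Cidea. It was 2 with the replicate block within diet. Over all genes, cold on HFD gave 1603 calls in the main fit, 2048 with DESeq2 and 1616 of 37458 with no count filter. A mean of at least 10 counts gave 1635 of 16577, the block over all groups 1721 and the block within diet 2153. For HFD in the cold DESeq2 called 1, and in the 4-group test 5, where edgeR called 0. Of all 16737 genes, DESeq2 called 1321 and 2625 there, and the main edgeR fit 795 and 427. Leaving out each library gave 0 to 3 calls for cold on NCD and 0 to 1 for cold on HFD, and 0 in the other comparisons. Over all genes these fits gave 490 to 1112 calls for cold on NCD and 1013 to 1672 for cold on HFD. The block added Fitm1 on both diets and Plin2 on HFD, and changed no other call of a gene.

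With the replicate block, exchange of pairs gave the same ratio differences, 0.83 for Plin2 to Plin1 with cold and 0.40 and 0.37 for Plin5 to Plin1 with cold and with HFD, at an adjusted p of 0.0938 (exact permutation test). With batch 1 alone they were 0.87, 0.37 and 0.37, where the exact permutation test cannot give a p below 0.0556. The HFD differences of Cidea to Cidec and of Plin3 to Plin1, neither of them called, were of opposite sign there, -0.013 and -0.022. Without single libraries the called differences stayed within 0.66 to 0.97, 0.36 to 0.47 and 0.33 to 0.44, with adjusted p of 0.02 to 0.06 in the exact permutation test. The adjusted p was 0.06 for all 3 without NCD RT replicate 1 or HFD RT replicate 1, and for Plin5 to Plin1 with HFD also without NCD cold replicate 1.

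No log2 fold change that was called without the block on all libraries changed sign. Values of opposite sign with batch 1 alone were 0.13 for Plin4 with cold on NCD, and 0.016 for Plin1 and 0.084 for Cidec with HFD at RT. With the muscle score they were 0.19 and 0.082 for Fitm1 with cold on NCD and on HFD, 0.19 and 0.077 for Fitm1 with HFD at RT and in the cold, and -0.0057 for Plin5 with HFD in the cold. For HFD at RT a mean of at least 10 counts gave -0.0010 for Plin4 and -0.020 for Fitm2, which had -0.015 with DESeq2, -0.015 with its size factors and -0.013 without a count filter. The causes were not tested. Signs also changed when single libraries were left out, within these ranges: Plin3 with cold on NCD -0.0016 to 0.21, Fitm1 with cold on NCD -2.67 to 0.65, Fitm1 with cold on HFD -3.44 to 0.092, Plin2 with HFD at RT -0.25 to 0.0080, Plin4 with HFD at RT -0.12 to 0.18, Cidec with HFD at RT -0.23 to 0.12, Fitm1 with HFD at RT -1.81 to 1.55, Fitm2 with HFD at RT -0.089 to 0.043, Plin5 with HFD in the cold -0.073 to 0.11, Fitm1 with HFD in the cold -2.57 to 0.95, Plin2 with interaction of diet and temperature -0.55 to 0.038, Cidea with interaction of diet and temperature -0.022 to 0.24, Fitm1 with interaction of diet and temperature -2.48 to 1.04, Cidea to Cidec with cold against RT -0.14 to 0.026, Cidea to Cidec with HFD against NCD -0.017 to 0.15, Plin2 to Plin1 with HFD against NCD -0.13 to 0.18, Plin3 to Plin1 with cold against RT -0.041 to 0.050, Plin3 to Plin1 with HFD against NCD -0.012 to 0.080, Fitm1 to Fitm2 with HFD against NCD -1.06 to 0.0030.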
